A study of Mus musculus with 6 samples.

Results

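Ccl2, Ccl7, Ccl5 and Ccl20 encode CC chemokines, secreted proteins that draw monocytes and lymphocytes out of the blood. The 4 genes were picked by name from the 54532 genes of the deposited expression table with their levels in these libraries already known, so their levels and fold differences are given as a description and were not tested. RNA was sequenced from primary cultures of mouse BMVECs, brain microvascular endothelial cells, which form the inner wall of brain capillaries. Cultures started from vessel fragments of wild-type C57BL/6J brains, received puromycin over the first days and were then kept until confluent. The 3 IL-36β libraries came from cells exposed for 24 h to 100 ng/ml of a processed form of mouse IL-36β named DEVD mIL-36β, a cytokine of the IL-1 family. The 3 untreated libraries came from cells left as controls, with no vehicle or time named, so that effects of the added medium or of a further day in culture cannot be told apart from those of IL-36β. Both groups were wild type, and the labels give neither the age nor the number of mice. Whether libraries of a group came from separate cultures is not stated, so every p-value measures the spread between these libraries only.

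CC chemokines carry a pair of adjacent cysteines near the start of the mature protein, and act on G protein-coupled receptors on leukocytes. Endothelial cells release them and hold them on heparan sulfate at the vessel wall, where they help bound leukocytes stop and cross into tissue. CCL2 and CCL7 act on CCR2 and draw inflammatory monocytes. CCL5 draws T cells and monocytes, and CCL20 acts on CCR6, which Th17 cells and some B cells and dendritic cells carry. Genes of this family are typical targets of NF-κB, a transcription factor that IL-1 family receptors switch on.

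Library depth was 15180389 to 19544689 reads assigned to genes. Levels are in FPKM, reads scaled to gene length and to library size, which lets genes of different length be set side by side. The summed level of the 12 endothelial markers was 2585 to 3239 FPKM in IL-36β libraries and 2479 to 2869 FPKM in untreated libraries, and Cdh5, which encodes VE-cadherin, was at 865 to 1126 and 900 to 1069 FPKM. The 10 pericyte and smooth muscle markers summed to 375 to 827 FPKM in IL-36β libraries and 422 to 1400 FPKM in untreated libraries, with the top value in untreated replicate 3 and nearly all of it from Acta2, smooth muscle actin. That library was also the lowest of the 6 for each of the 4 chemokines. The part of the smooth muscle genes in that was not tested, and values without untreated replicate 3 are given below. In cultures, fewer expressing cells and less RNA per cell cannot be told apart.

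Of the 4 genes, 1 has an entry in the promoter table used here. The window of Ccl20 covers 250 bases before to 50 bases after its start site (RefSeq, GRCm38.p6, chr1:83116516-83116815, plus strand). It is shown because NF-κB sites often have the general form searched for here, and capitals mark matches to GGG, then any 5 bases, then CC, searched on both strands. The promoter of Ccl12 is set beside it (GRCm38.p6, chr11:82101595-82101894, plus strand), because Ccl12 lies within 100 kb of Ccl2 and Ccl7, beyond Ccl11, and had 1 read in all libraries together; its capitals mark TATAAA, also searched on both strands.
Ccl20: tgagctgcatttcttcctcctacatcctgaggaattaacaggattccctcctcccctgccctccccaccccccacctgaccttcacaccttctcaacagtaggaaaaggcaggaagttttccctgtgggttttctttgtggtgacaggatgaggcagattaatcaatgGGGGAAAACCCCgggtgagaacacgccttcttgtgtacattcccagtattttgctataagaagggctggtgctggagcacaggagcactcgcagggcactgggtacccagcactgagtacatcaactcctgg
Ccl12: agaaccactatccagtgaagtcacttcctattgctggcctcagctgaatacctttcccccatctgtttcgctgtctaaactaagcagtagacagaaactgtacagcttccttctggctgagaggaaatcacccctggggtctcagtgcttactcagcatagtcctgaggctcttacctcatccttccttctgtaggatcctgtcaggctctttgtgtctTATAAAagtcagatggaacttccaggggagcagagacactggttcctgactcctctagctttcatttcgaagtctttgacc
In Ccl20 the matches to the first motif overlap each other in a single run, whose first match begins 82 bases before the start site. Such a match occurs in 50.8% of the 32851 promoter windows in the table, so its presence describes the sequence and says nothing on binding. Neither window held TGANTCA, a form of the AP-1 site found in 7.81% of windows. TATAAA, found in 13.6% of windows, was present in Ccl12 and not in Ccl20.

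Ccl2, the main monocyte chemokine of inflamed vessels, was by far the most abundant of the 4 transcripts (ENSMUSG00000035385, chromosome 11, 82035571 to 82037453, plus strand, GRCm38, with 3 exons in its protein-coding transcript). It stood at 1498, 1156 and 1310 FPKM in IL-36β replicates 1 to 3, against 423, 353 and 144 FPKM in untreated replicates 1 to 3. Every IL-36β library was above every untreated one, and the lowest of them was 2.73 times the highest untreated library. The means were 1321 ± 171 FPKM with IL-36β and 307 ± 145 FPKM untreated (SD, n = 3 each), a log2 difference of 2.24. By mean level Ccl2 was the gene of rank 14 among all 54532 genes in IL-36β cells and of rank 98 in untreated cells, so the untreated cultures already held much of this transcript. Relative spread was wider in untreated cells, with a coefficient of variation of 13.0% in IL-36β libraries and 47.2% in untreated libraries. Without untreated replicate 3 the log2 difference was 1.76.

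Ccl7, whose protein shares the receptor CCR2 with CCL2, lies 8.26 kb downstream of Ccl2 on the same strand (ENSMUSG00000035373, chromosome 11, 82045712 to 82047525, 3 exons). It was at 7.72, 4.86 and 4.12 FPKM in IL-36β replicates 1 to 3, against 1.08, 1.05 and 0 FPKM in untreated replicates 1 to 3. The groups did not overlap, and IL-36β replicate 1 was the highest library for Ccl7 as it was for Ccl2. These levels rest on 96, 64 and 60 reads in IL-36β libraries and on 14, 17 and 0 reads in untreated libraries. A count of 0 in untreated replicate 3 allows a level of up to 0.244 FPKM (3 reads). Means were 5.57 ± 1.90 and 0.708 ± 0.613 FPKM (SD, n = 3 each), and the ratio of summed, depth-scaled reads was 7.34 with an exact Clopper-Pearson 95% interval of 5.03 to 11.1. This interval and those below cover counting error only.

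Ccl5, also called RANTES, a chemokine for T cells and monocytes, was the faintest of the 4 (ENSMUSG00000035042, chromosome 11, 83525778 to 83530518, minus strand, 3 exons) and lies 1.48 Mb from Ccl7. It stood at 1.28, 1.20 and 1.43 FPKM in IL-36β replicates 1 to 3, against 0.192, 0.0514 and 0 FPKM in untreated replicates 1 to 3. The IL-36β libraries lay close together, with a coefficient of variation of 8.95%, and all were above the untreated libraries. The reads behind them were 19, 19 and 25 in IL-36β libraries, against 3, 1 and 0 in untreated libraries. Counting error alone would give a wider spread at such counts, so this closeness is not read as a trait of Ccl5. The ratio of summed, depth-scaled reads was 16.3, and the counting interval was wide, from 6.06 to 61.6. Ccl5 was the only 1 of the 4 for which IL-36β replicate 1 was not the highest library. Without untreated replicate 3 the log2(FPKM + 0.5) difference was 1.54 for Ccl5, 1.91 for Ccl7 and 1.74 for Ccl20, against 1.65, 2.46 and 1.96 with all 6 libraries.

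Ccl20, the ligand of CCR6, is the only member away from chromosome 11 (ENSMUSG00000026166, chromosome 1, 83116766 to 83119167, plus strand; its protein-coding transcripts have 3 or 4 exons). It was at 5.35, 1.63 and 1.01 FPKM in IL-36β replicates 1 to 3, against 0.217, 0.382 and 0 FPKM in untreated replicates 1 to 3. The groups did not overlap, but the IL-36β libraries differed among themselves by 5.32 times, the widest range of the 4 genes, and replicate 1 held 118 of the 182 IL-36β reads. Means were 2.66 ± 2.35 FPKM with IL-36β and 0.200 ± 0.192 FPKM untreated (SD, n = 3 each), so the SD within IL-36β libraries was nearly as large as their mean. The ratio of summed, depth-scaled reads was 11.8 (7.05 to 21.0). Without IL-36β replicate 1 the log2 difference of log2(FPKM + 0.5) was 1.39, against 1.96 with all libraries.

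**Figure D1:**
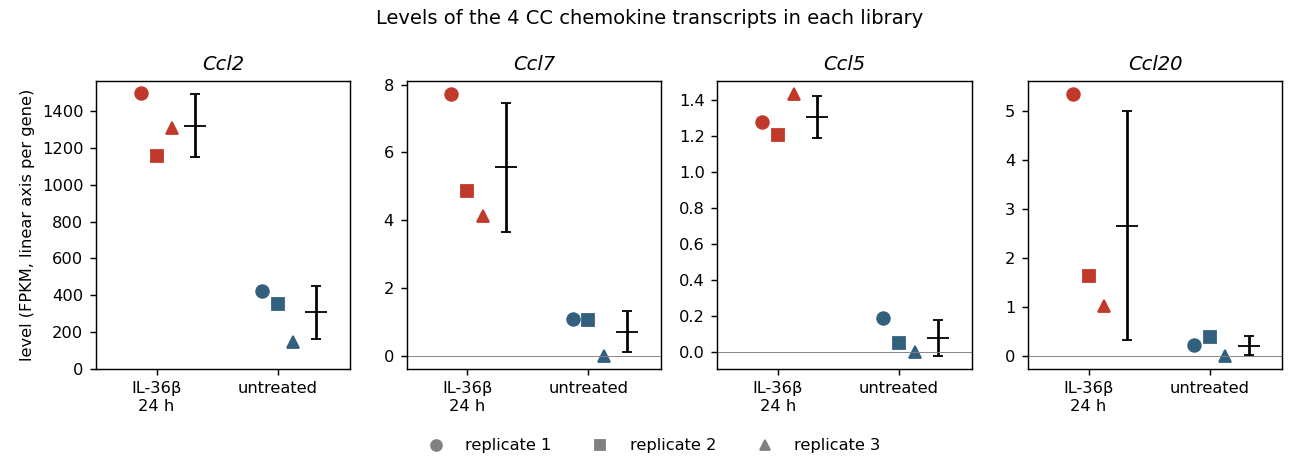
Level of each chemokine transcript in FPKM (vertical axis, linear, own range per gene) in 3 IL-36β and 3 untreated libraries; symbols mark replicates, and the bar is the mean with SD. In each panel every IL-36β library is above every untreated library, untreated replicate 3 is the lowest, and Ccl20 has the widest range among IL-36β libraries.

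In all 4 genes the IL-36β libraries were above the untreated ones without overlap; of the 12618 genes with at least 0.5 FPKM in at least 3 libraries this held for 8.95%, and the opposite order for 7.24%. The members were chosen from this comparison, so nothing is read from that count. All 4 passed this filter, Ccl5 and Ccl20 only through their IL-36β libraries. On the log2(FPKM + 0.5) scale the differences were 2.24 for Ccl2, 2.46 for Ccl7, 1.65 for Ccl5 and 1.96 for Ccl20. This scale compresses differences of low genes, so it does not rank the 4 by the size of their response. On ratios of summed, depth-scaled reads the order was different, with 16.3 for Ccl5, 11.8 for Ccl20, 7.34 for Ccl7 and 4.21 for Ccl2, and the counting intervals of Ccl5, Ccl20 and Ccl7 overlap.

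The library names carry letters, A and D occurring in both groups, though nothing says that a letter marks a shared culture. Between the libraries lettered A (IL-36β replicate 1 and untreated replicate 1) the level of Ccl2 differed 3.54-fold, that of Ccl7 7.18-fold and that of Ccl20 24.7-fold, the last on 5 untreated reads. Ccl5 had 19 and 3 reads in them. Between the libraries lettered D (IL-36β replicate 2 and untreated replicate 3) Ccl2 stood at 1156 against 144 FPKM, and the other members had 0 reads in the untreated library. Within the letters A and B the log2(FPKM + 0.5) differences were 1.95 for Ccl2, 2.40 for Ccl7, 1.52 for Ccl5 and 2.88 for Ccl20. Within D and E they were 3.09 for Ccl2, 3.31 for Ccl7, 1.86 for Ccl5 and 1.84 for Ccl20. Each of these comparisons has a single library on one side, IL-36β replicate 1 in A and B and untreated replicate 3 in D and E. Because the groups do not overlap for any of the 4 genes, their direction is fixed by the choice of members and only their sizes are given.

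The mixture was dominated by Ccl2. It made up 99.1 to 99.5% of the summed FPKM of the 4 genes in IL-36β libraries and 99.6 to 100% in untreated libraries. The order Ccl2, then Ccl7, held in every library where Ccl7 was detected. Ccl20 stood above Ccl5 in IL-36β replicates 1 and 2, with a ratio of 4.20 and 1.35, and below it in replicate 3, with a ratio of 0.703. In untreated replicates 1 and 2 the ratio was 1.13 and 7.43, on 3 and 1 reads of Ccl5. Whether Ccl20 and Ccl5 differ in level was not tested. Ccl2 exceeded Ccl7 by 194 to 318 times in IL-36β libraries, against 393 and 337 times in untreated replicates 1 and 2.

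The rest of the family was near silence. Of the 20 other CC chemokines searched, 19 were in the table under a chromosome, 12 of these had no read in any library, and their summed level was 1.22 to 3.54 FPKM in IL-36β libraries and 1.33 to 2.33 FPKM in untreated libraries. The 4 members therefore held 99.8 to 99.9% of all CC chemokine FPKM with IL-36β and 99.1 to 99.5% untreated. Ccl2 alone held 98.8 to 99.4% with IL-36β and 99.0 to 99.1% untreated, so this share describes Ccl2 rather than the 4 genes alike. In limma's test over all 12618 genes 0.182% were called, 0.166% higher and 0.0159% lower (Benjamini-Hochberg adjusted p under 0.05). The unadjusted p was under 0.05 for 10.4% of them. On recovered reads edgeR called 0.262% higher and 0.0317% lower, and DESeq2 1.27% and 0.793%. When limma also had a term that separates the A and B libraries from the D and E ones, it called 0.674% higher and 0.135% lower. That split into library sets was made here by letter, and no label states it. Of the other CC chemokines 2 passed the filter, Ccl9 and Ccl27a, with log2 differences of 0.15 and -0.14, and none was called; limma's unadjusted p was under 0.05 for 0, and edgeR and DESeq2 called 0. Ccl9, a myeloid chemokine, was at 1.35, 0.839 and 0.361 FPKM in IL-36β replicates 1 to 3, against 0.930, 0.778 and 0.363 FPKM in untreated replicates. Its libraries ranged alike in both groups, and limma's 95% interval for the fold runs from 0.658 to 1.86. In every untreated library Ccl9 stood above both Ccl5 and Ccl20. With IL-36β it stood below Ccl20 in every library and above Ccl5 in replicate 1 only.

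Ccl17, a chemokine for CCR4-bearing T cells, did not pass the filter, and is named because of its values. It had 9, 4 and 2 reads in IL-36β replicates 1 to 3, against 0 in every untreated library. At this depth no test was made of it.

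**Figure D2:**
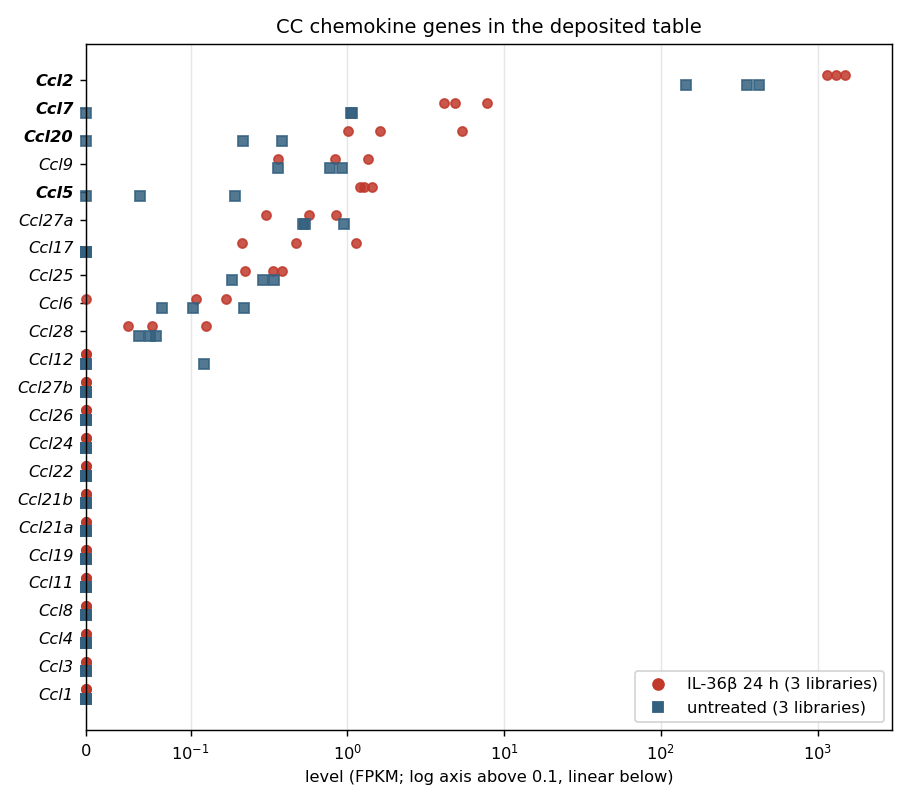
Level in FPKM (horizontal axis, logarithmic above 0.1 and linear below it) of the 23 CC chemokine genes found in the table under a chromosome, with 1 point per library; IL-36β points lie above untreated points in each row and the 4 members are in bold. Ccl2 lies between 144 and 1498 FPKM, every other gene is at 7.72 FPKM or less, and 12 genes are at 0 in all libraries.

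Ccl2 and Ccl7 belong to a cluster of CC chemokine genes, and the cluster was not expressed as a block. Within 100 kb of either gene lie Ccl11, Ccl12 and Ccl8, chemokines for eosinophils and monocytes, of which Ccl11 and Ccl8 had no read in any library and Ccl12 had 1 read, in untreated replicate 3. None of the 7 neighbours of Ccl2 or Ccl7 passed the filter; the most abundant, Gm11419, a long non-coding RNA gene, had 3, 0 and 2 reads in IL-36β libraries and none in untreated libraries. The longest identical run between the transcripts of Ccl2 and Ccl7 is 23 bases and that between Ccl2 and Ccl12 is 17 bases (GENCODE M21). Gm17268, which overlaps Ccl2 on the opposite strand, had no read.

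Around Ccl5, 4 of 9 neighbours passed the filter. Taf15, an RNA-binding protein gene, was at 10.3 ± 1.12 FPKM with IL-36β and 10.2 ± 1.09 FPKM untreated (SD, n = 3 each), a fold of 1.01 with a 95% interval of 0.828 to 1.22. Mmp28, a metalloprotease gene, was at 3.24 ± 0.589 FPKM with IL-36β and 4.86 ± 1.25 FPKM untreated, and its log2 difference of -0.50 did not pass (limma adjusted p = 0.454). Near Ccl20, Slc19a3, a thiamine transporter gene, was the only 1 of 10 neighbours to pass the filter, at 1.03 ± 0.248 and 1.23 ± 0.169 FPKM (limma adjusted p = 0.746). Krtap28-10, a keratin-associated gene, was listed at 0 throughout. Over the 26 distinct neighbours of the 4 genes 5 were fitted, and none was called in limma, edgeR or DESeq2. An unadjusted limma p was under 0.05 for 1 of them, and for 10.4% of all genes. The median log2 difference was -0.18, where that of all genes was 0.00.

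The genes whose levels moved most like each member were taken by the smallest root mean square distance over the 6 libraries in log2(FPKM + 0.5), centred on each gene's mean. This distance is a description: all are drawn from the comparison that chose the members, and genes share the libraries. For Ccl5, Ccl7 and Ccl20, with few untreated reads, the added 0.5 FPKM shapes the profile. Their distances and nearest genes therefore depend on that setting. For Ccl2 the nearest were Tmem132e (0.192), a transmembrane protein gene on the same chromosome, Ccl7 (0.240), and Nfkbiz (0.242), which encodes the NF-κB cofactor IκBζ. For Ccl7 they were Acod1 (0.168), which encodes the itaconate-making enzyme, Ccl2 (0.240) and Tmem132e (0.323). The neighbours Ccl2 and Ccl7 were thus each the second nearest gene to the other.

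By this distance Ccl5 had other companions. Its log2 difference was 1.65 with 0.5 FPKM added and 3.09 with 0.1 added, so these companions hold for the first setting only. Nearest to it were Icam1 (0.177), the integrin ligand on which leukocytes come to rest, Cxcl16 (0.185), a membrane-bound chemokine, and Ptges (0.189), prostaglandin E synthase. Icam1 was at 172.9, 166.5 and 151 FPKM in IL-36β replicates 1 to 3, against 63.7, 63.8 and 42.6 FPKM in untreated replicates. Icam1 showed little spread among IL-36β libraries. The small spread of Ccl5 rests on far fewer reads and is not read as a trait shared with Icam1. Nearest to Ccl20 were Cxcl3 (0.178), a neutrophil chemokine, Zbp1 (0.372), a nucleic acid sensor, and Csf2 (0.398), which encodes GM-CSF. Cxcl3 was at 5.34, 1.22 and 1.10 FPKM in IL-36β replicates 1 to 3, against 0.299, 0.296 and 0.0744 FPKM in untreated replicates, and it shared with Ccl20 the high value of IL-36β replicate 1. The nearest other member to Ccl5 was Ccl2 at 0.486 and the nearest to Ccl20 was Ccl7 at 0.539, both farther than the 0.240 between Ccl2 and Ccl7.

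**Figure D3:**
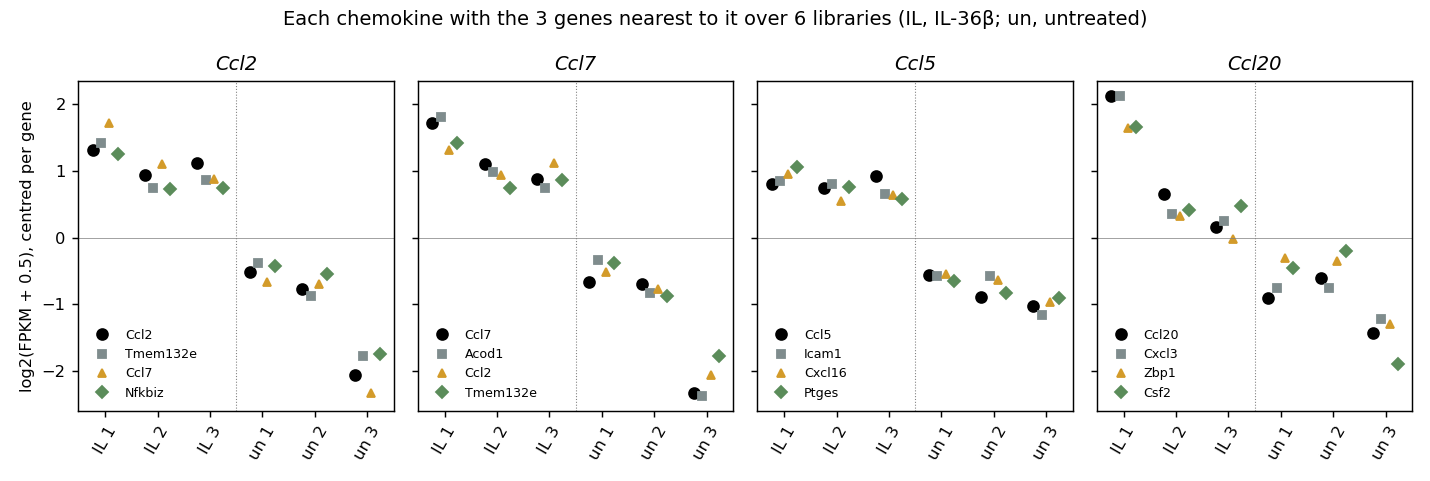
Level of each chemokine (black) and of the 3 genes nearest to it, as log2(FPKM + 0.5) centred on each gene's mean over 6 libraries (vertical axis), by library (horizontal axis). Ccl2 and Ccl7 share a low point in untreated replicate 3, and Ccl20 peaks in IL-36β replicate 1. Ccl5 is nearly level across IL-36β libraries, on 19 to 25 reads in each.

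Receptors for these ligands were all but missing from the cultures. Of the 11 CC chemokine receptors, 6 had no read in any library, among them Ccr2, Ccr3 and Ccr6, and none passed the filter. The most abundant was Ccr10, a receptor for skin-homing T cells, at 0.821, 0.211 and 0.159 FPKM in IL-36β replicates 1 to 3, against 0.357, 0.229 and 0.151 FPKM in untreated replicates. Its groups overlapped. Ccr1, a receptor of CCL5 and CCL7, was at 0.0697 FPKM or less in every library.

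Atypical receptors bind chemokines without the usual signalling, and 2 of 5 passed the filter. Ackr3, which takes up CXCL12, was at 57.0 ± 22.0 FPKM with IL-36β and 38.0 ± 12.2 FPKM untreated (SD, n = 3 each; limma adjusted p = 0.582). Ccrl2, which presents chemerin, was at 4.29, 4.45 and 4.76 FPKM in IL-36β replicates 1 to 3, against 4.01, 2.91 and 2.25 FPKM in untreated replicates (limma adjusted p = 0.399). Neither was called in limma, edgeR or DESeq2. An unadjusted limma p under 0.05 was found for 1 of them, Ccrl2, and for 10.4% of all genes. Ackr1 and Ackr2, the receptors that bind inflammatory CC chemokines, did not pass the filter and are named for that role. Ackr1 was at 0.367, 0.952 and 1.33 FPKM in IL-36β replicates 1 to 3, against 0.175, 0.316 and 0.324 FPKM in untreated replicates, without overlap, and Ackr2 was at 0.177 FPKM or less in every library.

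Heparan sulfate holds chemokines at the endothelial surface, and most genes of its synthesis and core proteins were well expressed. Over all genes the unadjusted limma p was under 0.05 for 10.4%, edgeR called 0.262% higher, and DESeq2 1.27% higher and 0.793% lower. Of the 23 genes here 21 passed the filter and none was called in limma. An unadjusted limma p under 0.05 was found for 6 of the 21, of which 2 were higher and the rest lower. On recovered reads edgeR called 1 of them higher, and DESeq2 called 2 higher and 1 lower. Sdc3, a syndecan, was the most abundant at 95.7 ± 18.7 FPKM with IL-36β and 94.7 ± 8.23 FPKM untreated, a fold of 1.00 (95% interval 0.783 to 1.28). Hspg2, which encodes perlecan, was at 92.6 ± 43.8 and 85.7 ± 19.6 FPKM (limma adjusted p = 0.981). The median log2 difference of the 21 genes was -0.03.

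Sdc4, Ext1 and Gpc4, the genes called by edgeR or DESeq2, were picked with their values known. Sdc4, a syndecan that carries heparan sulfate, was at 40.5, 42.0 and 39.7 FPKM in IL-36β replicates 1 to 3, against 25.9, 27.4 and 23.7 FPKM in untreated replicates. The groups did not overlap, and the fold of 1.58 (95% interval 1.36 to 1.82) narrowly missed the threshold in limma (adjusted p = 0.0569; 3.07e-05 to 0.207 over the alternatives). Ext1, a polymerase of the heparan sulfate chain, had a fold of 1.46 (1.25 to 1.70; limma adjusted p = 0.117; 0.00145 to 0.427 over the alternatives). Gpc4, a glypican, which DESeq2 called lower, was at 41.8, 28.4 and 31.7 FPKM in IL-36β replicates 1 to 3, against 55.6, 62.5 and 43.8 FPKM in untreated replicates (limma adjusted p = 0.279; 0.0195 to 0.753 over the alternatives).

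Proteases that trim chemokines were low. Of 8 genes 4 passed the filter and none was called in limma, edgeR or DESeq2, and none had an unadjusted p under 0.05. Mmp14, a membrane metalloprotease, was at 9.23 ± 3.07 FPKM with IL-36β and 7.41 ± 3.08 FPKM untreated (limma adjusted p = 0.743). Mmp2, which it activates and which cleaves CCL7, was at 5.94 ± 1.45 and 4.37 ± 1.34 FPKM (limma adjusted p = 0.587).

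Of 17 transcription factors and cofactors that act at promoters of this kind, Bcl3 was called higher and none lower. Bcl3, a nuclear IκB protein that binds the p50 and p52 subunits of NF-κB, was at 2.55, 2.88 and 3.44 FPKM in IL-36β replicates 1 to 3, against 0.821, 0.997 and 0.578 FPKM in untreated replicates. It rose 2.67-fold (95% interval 2.02 to 3.54; limma adjusted p = 0.0359). The call did not hold without any single one of the 6 libraries, where limma's adjusted p was 0.0735 to 0.161, and over all alternatives it ranged from 5.94e-07 to 0.163. Of the list 9 genes had an unadjusted limma p under 0.05, 8 of them higher and Fos lower, where 10.4% of all genes had one. The median log2 difference was 0.38, against 0.00 for all genes. The list was chosen with earlier results of these data known, so no enrichment is read from these counts. The edgeR fit called Bcl3 and Nfkb2 higher, and DESeq2 called 7 higher, adding Nfkb1, Relb, Nfkbiz, Cebpd and Irf1. Over all genes limma called 0.166% higher, edgeR 0.262% and DESeq2 1.27%. Nfkb2, which encodes the precursor of p52, was at 32.9 ± 4.6 FPKM with IL-36β and 18.8 ± 1.59 FPKM untreated (SD, n = 3 each; limma adjusted p = 0.0904).

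Nfkbiz, the second nearest gene to Ccl2 outside the chemokines, was at 15.8, 10.8 and 10.9 FPKM in IL-36β replicates 1 to 3, against 4.59, 4.18 and 1.56 FPKM in untreated replicates. Its fold of 3.51 (95% interval 2.01 to 6.12) missed the threshold in limma (adjusted p = 0.131; 0.00593 to 0.349 over the alternatives). It passed in DESeq2, in limma with the term for library sets and in limma with a block by library letter (adjusted p = 0.0172). Like Ccl2, it was lowest in untreated replicate 3. Rela, the main activating NF-κB subunit, named for that role, was at 106 to 123 FPKM in IL-36β libraries and 95.1 to 102 FPKM in untreated libraries (limma adjusted p = 0.582).

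Over all genes DESeq2 called 1.27% higher, and 10.4% had an unadjusted limma p under 0.05. Of 9 genes for decay and stability of chemokine transcripts limma and edgeR called none and DESeq2 called 1 higher. An unadjusted limma p under 0.05 was found for 3 of these 9. The most abundant, Zfp36l2, an AU-rich element binding protein gene, was at 46.9 ± 8.85 FPKM with IL-36β and 47.1 ± 1.13 FPKM untreated (limma adjusted p = 0.966). Khsrp, another decay factor gene, was at 15.2 ± 2.48 and 14.2 ± 0.167 FPKM (limma adjusted p = 0.822). The DESeq2 call was Zc3h12a, picked with its values known, which encodes Regnase-1, a nuclease that degrades inflammatory transcripts. It stood at 8.54, 5.76 and 5.32 FPKM in IL-36β replicates 1 to 3, against 2.54, 1.68 and 0.925 FPKM in untreated replicates. The groups did not overlap, and limma's fold was 3.27 (95% interval 2.04 to 5.23; adjusted p = 0.110; 7.67e-07 to 0.313 over the alternatives). It also passed in limma with the term for library sets, with a block by library letter (adjusted p = 0.0172) and with a block by title number (adjusted p = 0.0357).

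**Figure D4:**
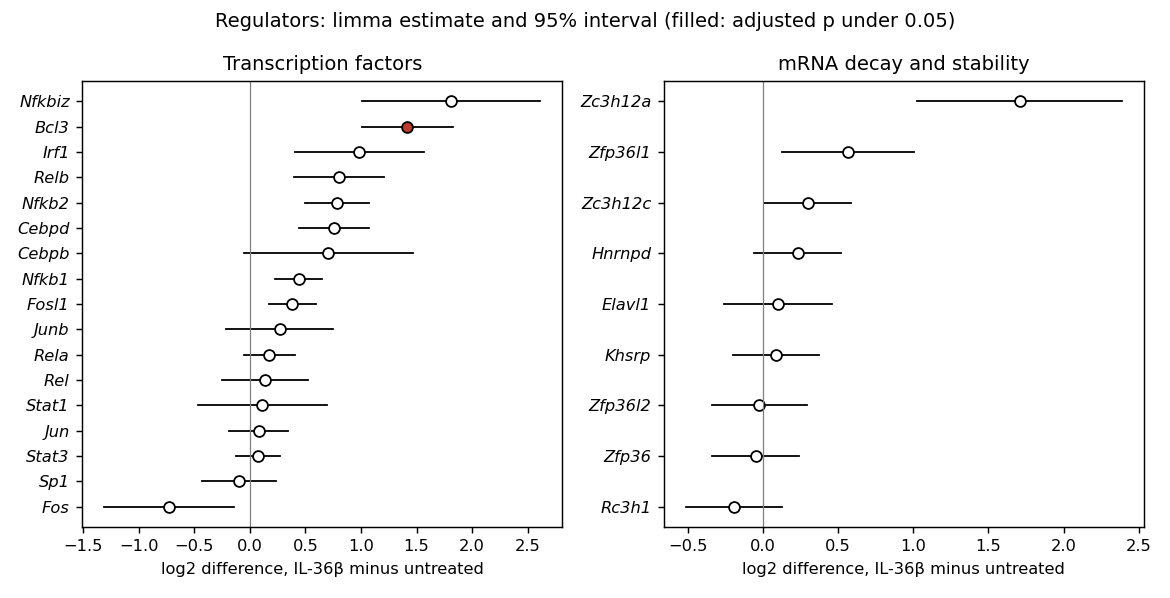
Log2 difference of IL-36β minus untreated libraries on the log2(FPKM + 0.5) scale with its 95% interval from limma (horizontal axis), for 17 transcription factors and cofactors (left) and 9 genes of mRNA decay and stability (right). Bcl3 is the only filled point, with an adjusted p under 0.05, while Nfkbiz and Zc3h12a lie at 1.81 and 1.71 and did not pass.

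Leukocytes can make CC chemokines too, and lists of their markers were summed in each library; their part in the results was not tested. Of the 10 T and NK cell markers, 8 had no read in any library, including Cd3e and Cd4, and the list, made up of Lck and traces of Il2rb, summed to 0.131 to 0.572 FPKM in IL-36β libraries and 0.0888 to 0.596 FPKM in untreated libraries. The 12 microglia and macrophage markers summed to 17.2 to 21.3 FPKM with IL-36β and 11.6 to 12.6 FPKM untreated, of which Cd14 gave 9.25 to 11.8 and 3.06 to 4.43 FPKM and Cd68 6.56 to 9.32 and 6.81 to 7.66 FPKM. The summed microglia and macrophage level was thus higher in every IL-36β library than in any untreated one, with Cd14 doing the same and Cd68 overlapping. The 8 neutrophil and monocyte markers summed to 0.465 to 1.21 FPKM in IL-36β libraries and 0 to 0.281 FPKM in untreated libraries, also without overlap. Of these markers S100a9, Mpo and Ccr2 had no read in any library. Among the 12618 fitted genes 8.95% were higher with IL-36β without overlap, so nothing on cell numbers is read from the order of these sums. The pan-leukocyte gene Ptprc was at 0.0202 FPKM or less and Csf1r at 0.171 FPKM or less. Fibroblast and meningeal markers summed to 0.943 to 3.66 FPKM in IL-36β libraries and 0.787 to 1.56 FPKM in untreated libraries.

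**Figure D5:**
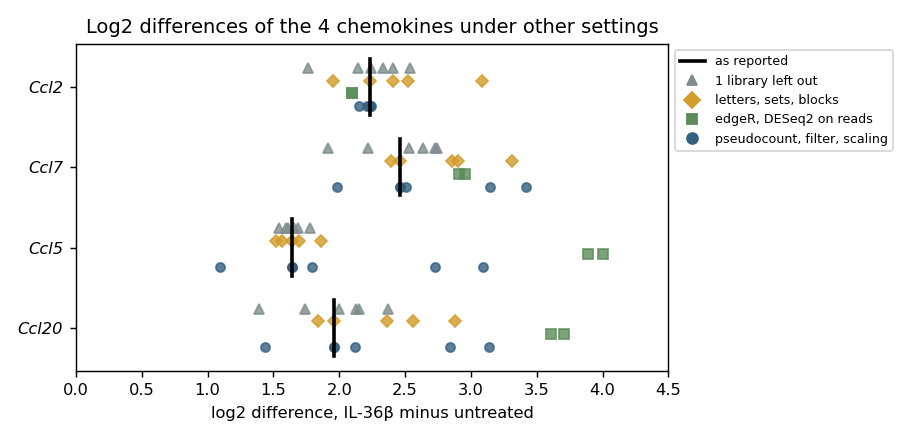
Log2 difference of IL-36β minus untreated libraries (horizontal axis) for each chemokine as reported (black line) and under 19 other settings (points, by kind of setting). Ccl2 ranges from 1.76 to 3.09 and Ccl5 most widely, from 1.09 to 4.01; the direction is fixed by the choice of members.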

How the data were processed

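Poly(A) RNA of the 6 BMVEC libraries was prepared with a stranded kit and sequenced on a NextSeq 500, per the labels' protocols. Tools listed in the submitters' processing notes were DESeq2 1.38.3, featureCounts 1.50-p3, HISAT2 2.05, StringTie and fastp, with the build GRCm38; no role and no strand setting was stated there. The deposited FPKM cover 54532 genes, and the deposited raw counts 660 genes. Samples were grouped by title and matched to columns by library name. A further 8 columns, from 4 libraries without a matching label, were left out. These libraries bear names of the same form, and with them each letter from A to E occurs with both numbers.

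FPKM times gene length, divided by a constant per library fixed from the deposited counts, gave whole reads within 0.01 in 100% of values; these equal the counts in all 660 genes. Differences between replicates exceeded counting error (chi-square over its degrees of freedom, 11.0 to 40.5). The members and gene lists were chosen with earlier results of these data known. The test was limma 3.58.1 (R 4.3.3, trended prior, two-sided) on log2(FPKM + 0.5). It covered 12618 genes with at least 0.5 FPKM in at least 3 libraries, Benjamini-Hochberg adjusted, threshold 0.05. A run on simulated reads took its spread from the untreated libraries and drew each gene independently. It therefore cannot show how the test does where genes of a library deviate together. Intervals for the ratio of reads are exact and set at 95%. Folds and intervals from limma are on the log2(FPKM + 0.5) scale, which compresses those of low genes. Genes were named as follows: the 4 members, up to 4 called genes per list or else the 2 most abundant, and the 3 nearest genes per member without predicted-gene names. Alternatives were other pseudocounts, filters and scalings, edgeR 4.0.16 and DESeq2 1.42.0 on recovered reads, blocks, library sets and leaving out each library. Replicate numbers in titles and letters in library names disagree, and neither is stated to mark a shared culture. Deviations of same-numbered libraries correlated at 0.207, -0.141 and 0.211, and those of same-lettered libraries at 0.207 (A) and 0.275 (D), which are 2 pairs only. The reported fit has no block, and both blocks were run as alternatives.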

Additional observations from a re-analysis of the deposited data

How the results depend on the processing

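The choice of members, whose groups do not overlap, fixes their direction, so only the sizes under the 19 alternatives are given. Of 76 values 62 moved by less than the spread between replicates (1 SD on the log2 scale). The other filters and the block by title number cannot change a log2 difference in this design. Their values are counted among the 62, so that count overstates how stable the sizes are. Ccl2 reached 3.09 within letters D and E. Ccl7 was 3.42 with a pseudocount of 0.1 and 3.31 within D and E. Ccl5 was 4.01 in DESeq2, 3.89 in edgeR, 2.73 as TPM, 3.09 and 1.09 with pseudocounts of 0.1 and 1, and 1.86 within D and E. Ccl20 was 3.71 in DESeq2, 3.61 in edgeR, 2.84 as TPM, 3.14 with a pseudocount of 0.1 and 2.88 within A and B. Leaving out 1 library gave 1.76 to 2.54 for Ccl2, 1.91 to 2.74 for Ccl7, 1.54 to 1.78 for Ccl5 and 1.39 to 2.37 for Ccl20. Depth limits Ccl5, Ccl7 and Ccl20, with 4, 31 and 16 reads in all untreated libraries together. For these 3 the pseudocount sets the value by its construction.

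Over all genes 21 were called higher and 2 lower. DESeq2 called 160 higher and 100 lower, edgeR 33 and 4, TPM scaling 13 higher, the library set as a term 85 and 17, and no filter on low values 0 and 0. The fit with a replicate block by title number called 12 and 1, that by library letter 67 and 11. Leaving out 1 library gave 1 to 7 higher and 0 to 1 lower. In the heparan sulfate list DESeq2 called 2 higher and 1 lower, edgeR 1 higher and the set term 2 higher. Of the transcription factors 7 were called higher in DESeq2, 2 in edgeR, 3 with the set term, 2 with the replicate block by letter, and 0 with TPM, without a filter, with the block by title number and without any 1 library. Of the decay genes 1 was called higher in DESeq2, with the set term and with either block. The cause of these shifts was not tested.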
